A study of Rattus norvegicus with 6 samples.

Results

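The presynaptic vesicle and release machinery is described here through 33 genes of the 17366 in the deposited table, chosen as a list of gene symbols: vesicle membrane proteins and synapsins, synaptotagmins, SNARE proteins and their regulators, active zone scaffolds, and a pair of endocytosis proteins. All 33 symbols were found, each as 1 RefSeq transcript, and all 33 passed the filter used for testing, 3 or more libraries at 1 FPKM or above. FPKM is a fragment count divided by transcript length in kilobases and by sequencing depth. Retinal ganglion cells (RGCs), the neurons whose axons form the optic nerve, were cultured from Sprague Dawley rats of postnatal day 5 and kept for 10 days. They then received Chrdl1 (chordin-like 1, a secreted binding protein of bone morphogenetic proteins) at 1 µg/ml for 12 h, or vehicle with 0.1% BSA and 4 mM HCl. There were 3 libraries in each group. A numeric code in the titles is shared by 1 vehicle and 1 Chrdl1 library, which gives the pairs called A, B and C here, and the labels do not explain it. Nor do they give the number of animals or preparations behind a group, so the p-values describe library-to-library spread, which may be technical. The extraction note speaks of visual cortex while all other labels name RGC cultures. All 9 RGC markers found in the table were at 1 FPKM or above in 3 or more libraries, with a summed level of 2175 to 2602 FPKM, and the 6 astrocyte and Muller glia markers summed to 52.2 to 90.8 FPKM. Most of the latter was Glul (glutamine synthetase) at 51.5 to 82.5 FPKM, while the astrocyte gene Gfap was at 0.0650 to 1.24 FPKM and Slc1a3 at 0.417 to 5.95 FPKM.

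At a nerve terminal, vesicles filled with transmitter are tethered at the active zone, primed by partial assembly of SNARE proteins, and fused with the plasma membrane when calcium binds synaptotagmin. The SNARE complexes are then taken apart by an ATPase and its adaptors, and the vesicle membrane is retrieved by endocytosis. RGCs are glutamatergic and form conventional synapses in the brain, whereas photoreceptors and bipolar cells of the retina release from ribbon synapses, which in mouse and other mammals use partly different paralogs such as complexin 3 and syntaxin 3.

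Read totals, recovered from the steps of the FPKM values, ran from 14546600 (vehicle, pair B) to 26551800 (vehicle, pair C) per library. Members rested on 31 reads (Amph, vehicle library of pair B) to 32350 reads (Syt4) per library. In RNA of whole cultures, fewer cells of a type and less RNA per cell cannot be told apart. The libraries of pair C stood apart in markers of several cell types. The 8 photoreceptor markers summed to 6.06, 2.997 and 50.3 FPKM in vehicle (pairs A, B, C) and 4.92, 3.65 and 51.1 FPKM with Chrdl1. Of the 8, only Crx, a photoreceptor transcription factor, was at 1 FPKM or above in 3 or more libraries. The 6 bipolar markers summed to 49.8 to 85.2 FPKM, highest in pair C. Most of the sum in pairs A and B was Isl1, which is also listed as an RGC marker. Isl1 was at 36.1 to 48.3 FPKM and lowest in pair C. Cabp5, a calcium-binding protein of bipolar cells, was at 0.0760, 0.170 and 3.30 FPKM in vehicle (pairs A, B, C). With Chrdl1 it was at 0.0790, 0.270 and 2.73 FPKM. The 9 microglia and macrophage markers summed to 219, 21.4 and 262 FPKM in vehicle (pairs A, B, C) and 179, 11.7 and 235 FPKM with Chrdl1, lowest in pair B. The sum of the 6 endothelial and mural markers was also lowest in pair B. It was 90.5, 18.0 and 137 FPKM in vehicle (pairs A, B, C) and 82.1, 12.4 and 132 FPKM with Chrdl1. Most of it was Acta2, at 80.6, 10.0 and 115 FPKM in vehicle and 73.4, 7.08 and 110 FPKM with Chrdl1. Kdr, an endothelial gene, was instead lowest in pair A, at 1.45, 2.09 and 4.38 FPKM in vehicle and 1.19, 2.07 and 4.44 FPKM with Chrdl1. The part of these cells in the differences between pairs given below was not tested.

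Release machinery transcripts were abundant. The median member was at 57.6 FPKM as a mean of 6 libraries, against 12.9 FPKM for the median of the 10390 tested transcripts. Of the 33, 11 had a mean of at least 100 FPKM, 18 lay from 10 to under 100 and 4 (Rims2, Unc13b, Syt2 and Amph) lay under 10. The members together held 1.04% to 1.22% of the summed FPKM of the table.

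**Figure D1:**
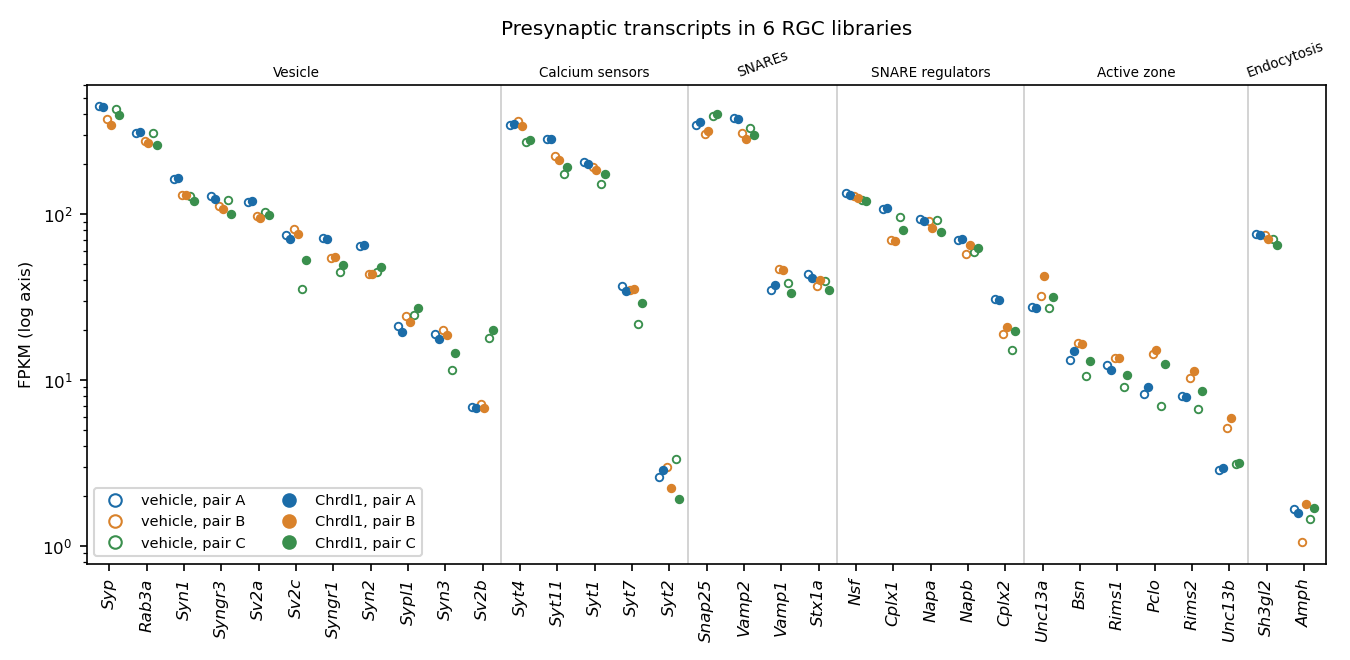
FPKM (vertical, log axis) of the 33 members in 6 libraries, grouped by role and ordered by mean; open points are vehicle and filled points Chrdl1 libraries, coloured by pair. Syp, Snap25, Vamp2 and Syt4 lie near the top and Amph and Syt2 at the bottom.

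Among vesicle membrane proteins, Syp, encoding the tetraspan protein synaptophysin, was the highest of all 33. It was at 445, 372 and 432 FPKM in vehicle (pairs A, B, C) and 444, 343 and 396 FPKM with Chrdl1. Both pair B libraries were the lowest, and the treatment groups overlapped. The mean was 416 ± 38.9 FPKM (SD, n = 3) in vehicle and 394 ± 50.6 FPKM (n = 3) in Chrdl1 libraries. Its widely expressed relative Sypl1 was at 19.3 to 27.2 FPKM, so that Syp made up 94.5% ± 0.940 (SD, n = 6 libraries) of their joint FPKM. Rab3a, the small GTPase that links vesicles to the active zone, was at 309, 275 and 308 FPKM in vehicle (pairs A, B, C) and 314, 269 and 259.7 FPKM with Chrdl1, and the groups overlapped. Of the synapsins, phosphoproteins that hold vesicles in the reserve pool, Syn1 was at 119.7 to 164 FPKM, Syn2 at 43.6 to 64.8 FPKM and Syn3 at 11.5 to 19.9 FPKM. Syn1 therefore made up 67.1% ± 1.38 of synapsin FPKM, Syn2 24.7% ± 1.76 and Syn3 8.17% ± 1.55. The synaptogyrins, tetraspan relatives of synaptophysin, were at 99.5 to 127 FPKM for Syngr3 and 44.9 to 71.9 FPKM for Syngr1. Sv2a, the vesicle glycoprotein that binds the antiepileptic drug levetiracetam, was at 94.8 to 119 FPKM, and its paralogs Sv2b and Sv2c are described with the title codes below.

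Calcium sensors were led by an atypical member. Syt4, a synaptotagmin of dense-core vesicles, was at 341, 365 and 272 FPKM in vehicle (pairs A, B, C) and 348, 337 and 279 FPKM with Chrdl1; the pair C libraries were the lowest of each group. Syt11, which does not bind calcium and acts in vesicle endocytosis, was at 173 to 283 FPKM, and Syt1, the fast calcium sensor of forebrain synapses, at 151 to 206 FPKM. Syt7, the slower sensor of asynchronous release, was at 21.6 to 37.0 FPKM. Syt2, the fast sensor of brainstem and neuromuscular synapses, was at 1.92 to 3.34 FPKM. By share of the 5 synaptotagmins, Syt4 held 42.2% ± 2.26, Syt11 29.4% ± 2.505, Syt1 23.98% ± 0.944, Syt7 4.14% ± 0.382 and Syt2 0.351% ± 0.0961.

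The SNAREs differed by paralog. Snap25, a plasma membrane SNARE, was at 342, 302 and 387 FPKM in vehicle (pairs A, B, C) and 357, 317 and 401 FPKM with Chrdl1; pair C was the highest and pair B the lowest in each group. The vesicle SNARE Vamp2 (synaptobrevin) was at 378, 306 and 331 FPKM in vehicle (pairs A, B, C) and 373, 284 and 301 FPKM with Chrdl1, with both pair A libraries the highest. It made up 89.2% ± 2.22 of the FPKM it shares with Vamp1, which was at 33.3 to 46.3 FPKM. Stx1a, encoding the plasma membrane SNARE syntaxin 1A, was at 34.8 to 43.6 FPKM. The table lists 1 transcript per gene, so splice forms such as those of Snap25 were not separated. Nsf, the ATPase that disassembles SNARE complexes, varied least between libraries, at 133, 128 and 120.5 FPKM in vehicle (pairs A, B, C) and 129.8, 124 and 119 FPKM with Chrdl1. Its adaptors Napa (alpha-SNAP) and Napb (the neuronal beta-SNAP) were at 78.2 to 93.0 FPKM and 57.4 to 70.2 FPKM, with Napa at 57.8% ± 2.61 of the sum. Cplx1, a complexin that binds assembled SNAREs, was at 68.3 to 108 FPKM, and its paralog Cplx2 at 15.1 to 30.8 FPKM. Cplx1 made up 79.6% ± 3.51 of their joint FPKM. That share leaves out Cplx3, which is outside the members and was at 22.3 (vehicle) and 20.6 FPKM (Chrdl1) in pair C.

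Active zone genes, with FPKM as the scale per length, lay below Snap25, Vamp2 and Stx1a for 5 of 6 members in every library, and Unc13a came nearest. Unc13a, the Munc13 priming factor, was at 27.5, 31.9 and 27.1 FPKM in vehicle (pairs A, B, C) and 27.1, 42.4 and 31.6 FPKM with Chrdl1; the Chrdl1 library of pair B was the highest of the 6. Unc13b was at 2.86 to 5.92 FPKM, and Unc13a made up 89.2% ± 1.88 of the pair's FPKM. The large scaffolds Bsn (bassoon) and Pclo (piccolo) were at 10.5 to 16.7 FPKM and 6.97 to 15.1 FPKM, with a Bsn share of 56.9% ± 5.07. Rims1 and Rims2, scaffolds that bind Rab3 and calcium channels, were at 9.03 to 13.5 FPKM and 6.64 to 11.4 FPKM, with a Rims1 share of 57.3% ± 2.30. Of the endocytosis proteins, which bend membrane at the vesicle neck, Sh3gl2 (endophilin A1) was at 75.2, 75.0 and 71.0 FPKM in vehicle (pairs A, B, C) and 74.4, 70.4 and 64.9 FPKM with Chrdl1. Amph (amphiphysin) was at 1.06 to 1.78 FPKM, from 31 to 83 reads per library, just above the filter.

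Chrdl1 was compared with vehicle to see how the protein alters RGC transcripts within 12 h. No member of the release machinery passed the test. Limma on log2(FPKM + 1), with Benjamini-Hochberg adjustment over all 10390 tested transcripts, called 0 of 33 members at an adjusted p under 0.05, where it called 0.0% of all transcripts, and 0 members at an unadjusted p under 0.05, where 0.173% of all were. Without the block, differences between pairs count as spread and few transcripts of any kind fell under 0.05. The 0 of 33 members there does not show that they were unchanged. With the pair as a replicate block it called 0 as well (0.0% of all), with a smallest adjusted p of 0.872, and 2 members, Pclo and Unc13a, had an unadjusted p under 0.05, or 6.06% of members against 5.15% of all transcripts. Limma voom on the recovered reads called 0 members with or without the block. With the block it had 4 members at an unadjusted p under 0.05, Pclo, Unc13a and Bsn higher and Napa lower, with a smallest adjusted p of 0.260 for Pclo, and it called 2 of all transcripts, Apoe at -0.36 (adjusted p = 0.00442) and LOC100911498 at 0.38 (adjusted p = 0.0356), both named after their values were seen.

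Differences were small and of both signs. Fold changes given here are Chrdl1 minus vehicle on the log2(FPKM + 1) scale, which understates the change of low genes. Among members 18 differences were positive and 15 negative, with a median of 0.024, against 38.4% positive and a median of -0.028 over all tested transcripts. With quantile normalization, 23 were positive and 10 negative, with a median of 0.069, against 0.00062 over all. By pair, 13, 14 and 20 of 33 members were above 0 in pairs A, B and C, against 43.8%, 43.5% and 39.4% of all transcripts. In all 3 pairs, 5 of 33 members were higher, where 7.55% of all transcripts were, and 6 lower, where 19.5% were. The 3 libraries of a group lay wholly above or below those of the other for 0 members and for 2.44% of all transcripts (0.577% higher and 1.87% lower). With the block, the 95% interval of a member's fold change reached 0.15 to either side for the median member, and the intervals of the 33 members lay between -0.55 and 0.58; without it the median member's interval reached 0.40 to either side.

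**Figure D2:**
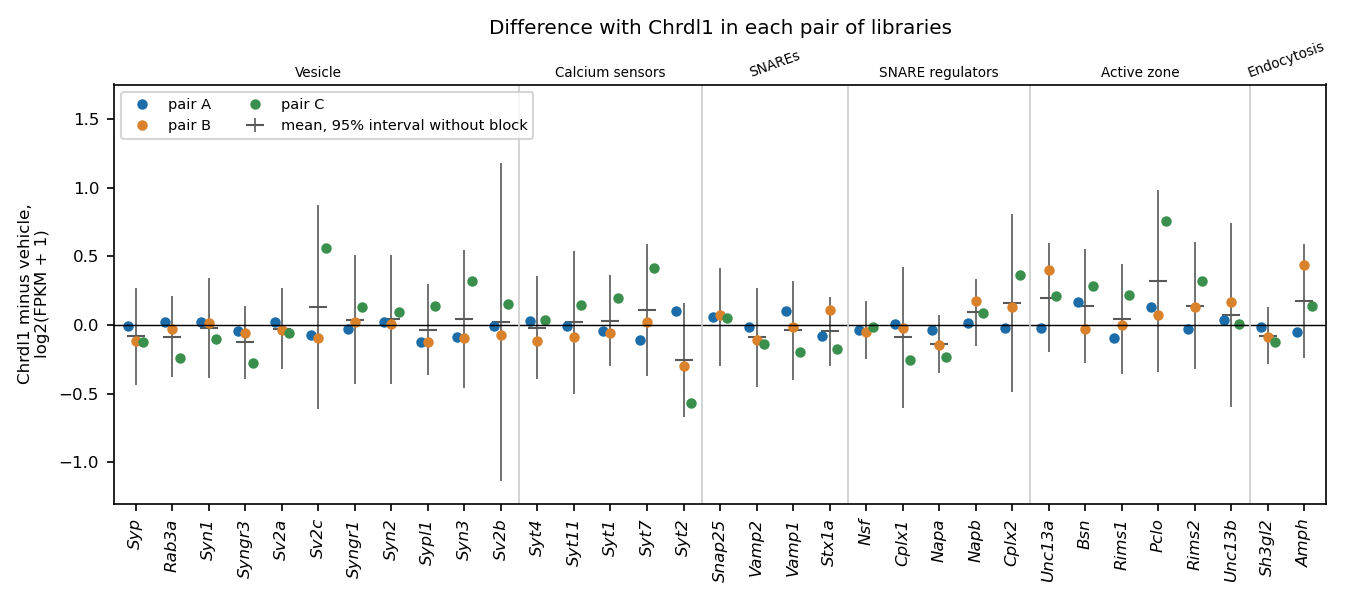
Chrdl1 minus vehicle on the log2(FPKM + 1) scale (vertical axis) for each member; coloured points are the 3 pairs, grey bars the mean and its unblocked 95% interval. Every interval crosses 0, and the points of pair C lie farthest from 0 for Pclo, Sv2c, Syt7 and Syt2.

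Pclo (chr4:16519487-17058921 on rn6, minus strand) had the largest difference among members and their smallest unadjusted p with the block. It was at 8.21, 14.3 and 6.97 FPKM in vehicle (pairs A, B, C) and 9.08, 15.1 and 12.5 FPKM with Chrdl1. The Chrdl1 library was the higher in every pair, and both pair B libraries were the highest of their group, so that the groups overlapped. The mean was 9.81 ± 3.91 FPKM (SD, n = 3) in vehicle and 12.2 ± 3.01 FPKM (n = 3) in Chrdl1 libraries. The fold change was 0.32 ± 0.28 (SE), at 0.13, 0.075 and 0.76 in pairs A, B and C, with an adjusted p of 0.9998 and of 0.872 with the block. With pairs A and C only, limma with the block called it at 0.45 (adjusted p = 0.0404), where 0.327% of all transcripts were called, and leaving out 1 library gave 0.13 to 0.60. The Pclo transcript is 14787 bases long. In pair C, the median fold change of all tested transcripts was -0.19 under 1000 bases and 0.092 at 4000 bases and over. Once a length trend was removed from each pair, Pclo was at 0.20 (unadjusted p = 0.0589 with the block). In that fit 4 other members were under 0.05, all higher and none called: Napb, Snap25, Cplx2 and Unc13a (0.18, unadjusted p = 0.0416). Among all 10390 tested transcripts, 231 were higher and 202 lower at that threshold. Quantile normalization with the block also had 4 members under 0.05, all higher, beside 145 higher and 229 lower of all.

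Unc13a (chr16:20056398-20103945, minus strand) averaged 28.8 ± 2.66 FPKM (SD, n = 3) in vehicle and 33.7 ± 7.86 FPKM (n = 3) in Chrdl1 libraries. Its fold change was 0.20 ± 0.081 (SE with the block, 0.17 without it), with an adjusted p of 0.872 with the block. In pairs A, B and C it was -0.019, 0.40 and 0.21, and leaving out 1 library gave 0.025 to 0.34. All 6 active zone members had a positive fold change, with a median of 0.14, and pair medians of 0.0083, 0.10 and 0.25. The 16 active zone genes tested outside the members had 9 positive and 7 negative fold changes, with a median of 0.023 and pair medians of -0.027, -0.058 and 0.13. All 6 members are transcripts of over 4000 bases. The 26 members under 4000 bases had a median of -0.024, with 11 positive.

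Other members of 1 sign in every pair had smaller differences. Napa was lower throughout, at 93.0, 90.7 and 92.2 FPKM in vehicle (pairs A, B, C) and 90.8, 81.8 and 78.2 FPKM with Chrdl1. Its fold change was -0.14 ± 0.064 (SE with the block, 0.089 without it), with an adjusted p of 0.872 with the block. Its paralog Napb was higher throughout. It was at 69.6, 57.4 and 58.9 FPKM in vehicle (pairs A, B, C) and 70.2, 65.1 and 62.6 FPKM with Chrdl1. The Napb fold change was 0.091 ± 0.064 (SE with the block, 0.10 without it), with an adjusted p of 0.883 with the block. For both adaptors the groups overlapped. The Napa share of their sum was 59.8% ± 2.28 in vehicle and 55.9% ± 0.459 in Chrdl1 libraries (SD, n = 3 each), given without a test. Syngr3 was lower in every pair, at 127, 112 and 121 FPKM in vehicle (pairs A, B, C) and 124, 107 and 99.5 FPKM with Chrdl1, a fold change of -0.13 ± 0.11 (SE). Vamp2, Sh3gl2 and Syp were also lower in every pair, at -0.088 ± 0.15 (SE), -0.077 ± 0.087 (SE) and -0.083 ± 0.15 (SE) (Syp at 0.015 with quantile normalization), and Snap25 higher in every pair, at 0.059 ± 0.15 (SE). Leaving out 1 library gave -0.20 to -0.093 for Napa, 0.039 to 0.18 for Napb, -0.21 to -0.056 for Syngr3, -0.21 to -0.0064 for Vamp2, -0.12 to -0.026 for Sh3gl2, -0.17 to 0.014 for Syp and -0.030 to 0.15 for Snap25. Nsf, lower in every pair, and Syn2 and Unc13b, higher in every pair, had fold changes of -0.035, 0.042 and 0.071. Synaptotagmins were of mixed sign, from -0.26 for Syt2 to 0.11 for Syt7.

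**Figure D3:**
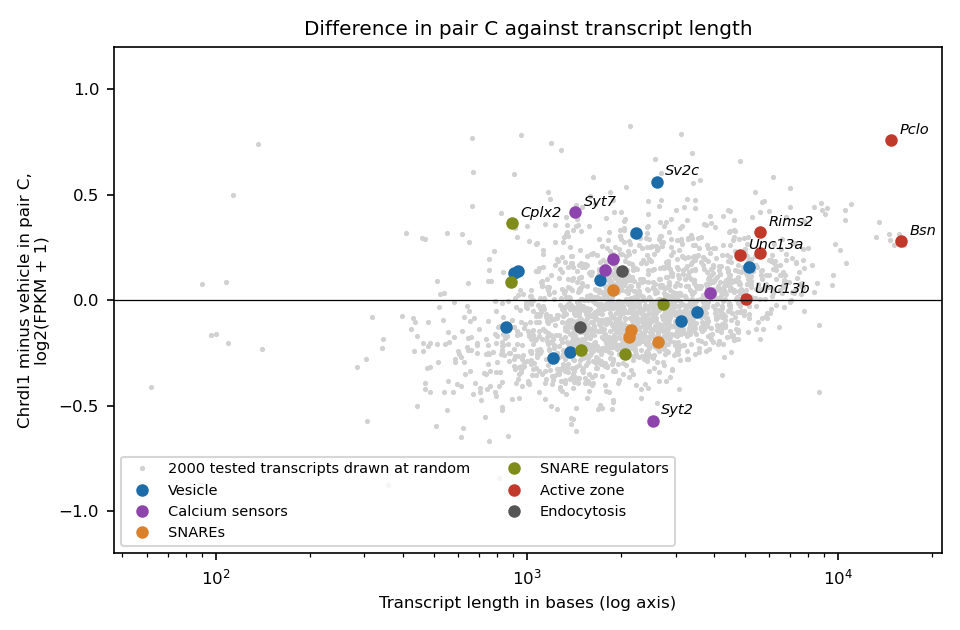
Chrdl1 minus vehicle in pair C on the log2(FPKM + 1) scale (vertical axis) against transcript length in bases (horizontal log axis); grey points are 2000 tested transcripts drawn at random and coloured points the 33 members by role. The active zone members lie at the right, with Pclo and Bsn the longest members.

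Members differed between title codes. With treatment as a term, limma compared the codes over 2 libraries each, 1 vehicle and 1 Chrdl1, and 24 of the 33 members were called in at least 1 of the 3 contrasts, where 52.3% of all transcripts were. Between codes A and B, 5 members were higher and 9 lower in B, where 14.0% of all transcripts were higher and 15.0% lower. In C against A, 2 were higher and 13 lower, where 21.0% and 9.94% of all were. In C against B, 3 were higher and 12 lower, where 20.2% and 11.7% of all were. In either direction, 29.0%, 30.9% and 31.8% of all transcripts were called in the 3 contrasts, beside 14, 15 and 15 of 33 members. The contrasts share libraries. Their p-values rest on scatter within pairs of libraries after the treatment term, and do not measure spread between preparations. Members' medians were -0.092, -0.20 and -0.077 for B minus A, C minus A and C minus B, and those of all tested transcripts 0.026, 0.069 and 0.030. The balance of calls depended on the scaling. Quantile normalization moved the median of all transcripts by -0.10 for C minus B, and all transcripts called then came to 1214 higher and 1384 lower for C minus A and 1551 higher and 2211 lower for C minus B, beside 2 and 11 members and 3 and 15 members. For B minus A it gave 5 higher and 4 lower members, and the members' median turned to 0.038, beside 0.031 for all transcripts. The members' medians for C minus A and C minus B were then -0.18 and -0.22, beside -0.029 and -0.074 for all.

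**Figure D4:**
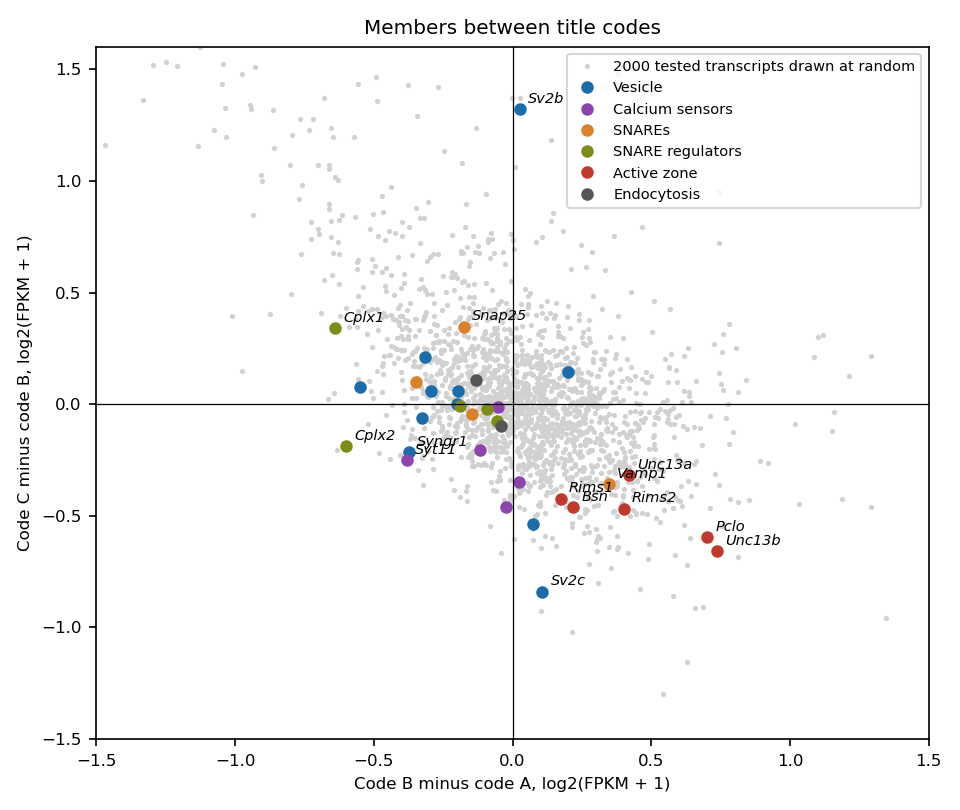
Log2(FPKM + 1) difference of code C minus B (vertical axis) against code B minus A (horizontal axis), which share the code B libraries; grey points are 2000 tested transcripts drawn at random, some beyond the axes, and coloured points the 33 members by role. The 6 active zone members lie at the lower right, and Sv2b and Sv2c at the top and bottom.

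Of all members, the SV2 glycoproteins Sv2b and Sv2c, vesicle membrane proteins with the fold of sugar transporters, had the largest differences between codes, in opposite directions in pair C. Sv2b (chr1:136664201-136842247 on rn6, minus strand) was at 6.82, 7.15 and 17.8 FPKM in vehicle (pairs A, B, C) and 6.78, 6.73 and 19.9 FPKM with Chrdl1, with both pair C libraries above all 4 others. Its difference was 1.35 ± 0.11 (SE, adjusted p = 2.6e-06) for C minus A and 1.32 ± 0.11 (SE, adjusted p = 9.6e-07) for C minus B. Sv2c (chr2:26502115-26699276, minus strand) was at 74.7, 81.1 and 35.5 FPKM in vehicle (pairs A, B, C) and 70.8, 75.7 and 52.9 FPKM with Chrdl1, with both pair C libraries below all others and the vehicle library the lower of them. Its difference was -0.73 ± 0.13 (SE, adjusted p = 0.00120) for C minus A and -0.84 ± 0.13 (SE, adjusted p = 3.0e-04) for C minus B. Leaving out the Chrdl1 library of pair C gave -1.06 for C minus A, and leaving out its vehicle library gave -0.41 (adjusted p = 0.00201). Sv2a was highest in pair A. It was lower in B than in A, at -0.30 ± 0.074 (SE, adjusted p = 0.0106), and in C than in A, at -0.24 ± 0.074 (SE, adjusted p = 0.0286), and its C minus B difference was 0.057 ± 0.074 (SE, adjusted p = 0.598). As shares of SV2 FPKM, Sv2b went from 3.44% and 3.82% in pairs A and B to 11.6% in pair C, and Sv2c from 36.8% and 43.2% to 26.9%. In mouse retina SV2B is known from the ribbon terminals of photoreceptors and bipolar cells.

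A pair of ribbon synapse genes outside the list, picked after their values were seen, were high in the same libraries. Cplx3, the complexin of retinal ribbon synapses in mouse, was at 2.96, 1.03 and 22.3 FPKM in vehicle (pairs A, B, C) and 2.02, 1.35 and 20.6 FPKM with Chrdl1, a difference of 2.70 ± 0.15 (SE, adjusted p = 8.4e-08) for C minus A. Stx3, the ribbon synapse syntaxin, was at 9.02, 9.92 and 20.6 FPKM in vehicle (pairs A, B, C) and 8.17, 11.3 and 23.1 FPKM with Chrdl1, a difference of 1.25 ± 0.11 (SE, adjusted p = 4.8e-06). The photoreceptor factor Crx was at 4.88, 2.15 and 44.4 FPKM in vehicle (pairs A, B, C) and 3.54, 2.39 and 45.5 FPKM with Chrdl1. Slc17a6, the vesicular glutamate transporter of RGCs, was at 241, 289 and 224 FPKM in vehicle (pairs A, B, C) and 245, 281 and 236 FPKM with Chrdl1, lowest in pair C within each group. Not all RGC markers followed it: Thy1, a surface protein of RGCs, was at 201, 153 and 271 FPKM in vehicle (pairs A, B, C) and 203, 133 and 245 FPKM with Chrdl1, highest in pair C, and the 9 RGC markers summed to 2602, 2307 and 2438 FPKM in vehicle (pairs A, B, C) and 2600.0, 2296 and 2175 FPKM with Chrdl1. Whether the photoreceptor, bipolar or other cell type transcripts of pair C had a part in the levels of Sv2b, or of the members that were lower there, was not tested.

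**Figure D5:**
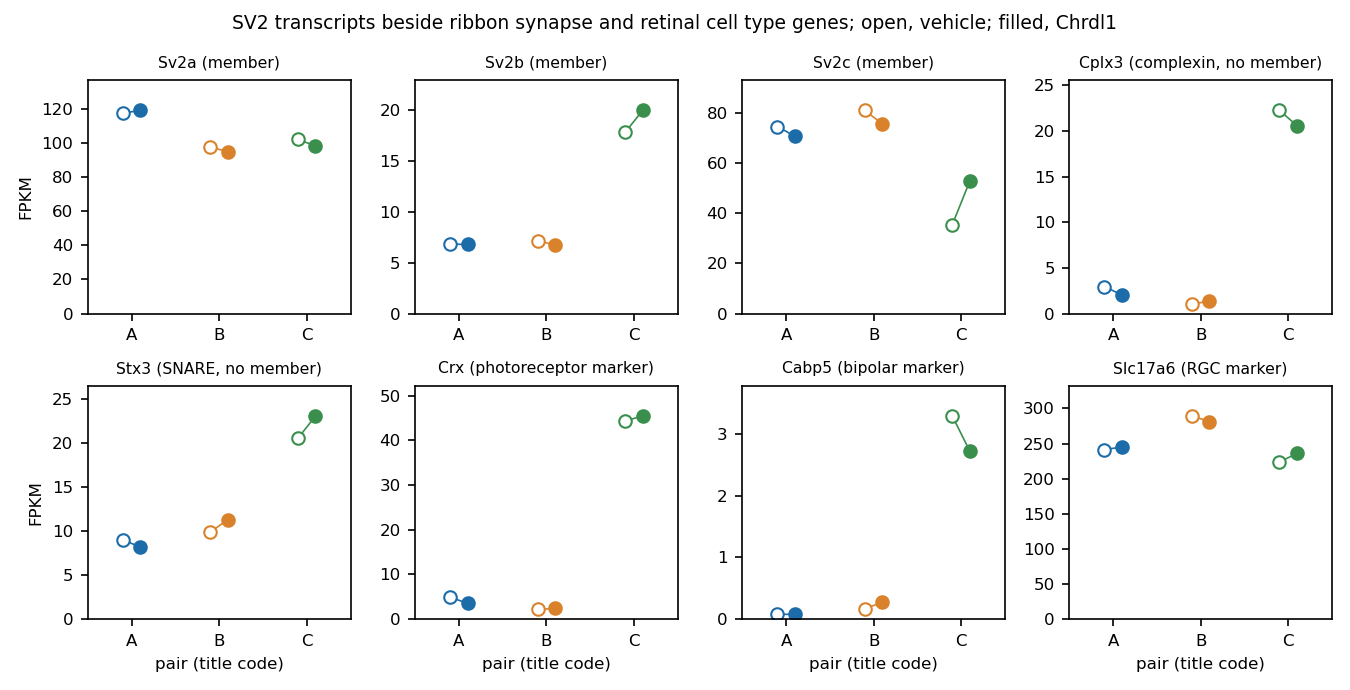
FPKM (vertical axes, from 0) by pair (horizontal axes) of Sv2a, Sv2b and Sv2c, of Cplx3 and Stx3, and of the markers Crx, Cabp5 and Slc17a6; open points are vehicle and filled points Chrdl1 libraries, joined within a pair. Sv2b, Cplx3, Stx3, Crx and Cabp5 are highest and Sv2c lowest in pair C.

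Promoter sequence was compared for the 26 of 33 members that matched RefSeq's table by symbol (27 windows, GRCr8 build, whereas the expression table is on rn6). The 250 bases before the annotated start are printed for Sv2b and Sv2c, the paralogs that parted most between codes, for Syn1, the main synapsin, and for Unc13a, the main priming factor. Capitals mark the GC box GGGCGG or its reverse complement CCGCCC, and the cyclic AMP response element TGACGTCA, which reads the same on both strands; the motifs printed here do not share bases.
Sv2b, chr1:138562259-138562508, minus strand: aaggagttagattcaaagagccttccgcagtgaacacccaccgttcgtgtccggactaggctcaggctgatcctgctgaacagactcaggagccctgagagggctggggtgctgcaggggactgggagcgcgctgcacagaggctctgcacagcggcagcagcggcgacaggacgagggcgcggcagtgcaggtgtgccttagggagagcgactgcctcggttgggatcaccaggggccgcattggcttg
Sv2c, chr2:29163169-29163418, minus strand: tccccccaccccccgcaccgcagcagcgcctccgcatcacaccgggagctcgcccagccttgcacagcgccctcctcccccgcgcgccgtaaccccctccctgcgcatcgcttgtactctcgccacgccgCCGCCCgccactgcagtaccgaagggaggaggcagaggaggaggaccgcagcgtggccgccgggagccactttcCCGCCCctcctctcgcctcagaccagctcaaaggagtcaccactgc
Syn1, chrX:3725495-3725744, plus strand: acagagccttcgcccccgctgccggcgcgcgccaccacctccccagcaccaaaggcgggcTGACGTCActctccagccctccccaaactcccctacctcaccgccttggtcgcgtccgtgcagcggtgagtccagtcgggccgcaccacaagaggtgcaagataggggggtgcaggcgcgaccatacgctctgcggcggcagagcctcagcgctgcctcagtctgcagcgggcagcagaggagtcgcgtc
Unc13a, chr16:18415787-18416036, minus strand: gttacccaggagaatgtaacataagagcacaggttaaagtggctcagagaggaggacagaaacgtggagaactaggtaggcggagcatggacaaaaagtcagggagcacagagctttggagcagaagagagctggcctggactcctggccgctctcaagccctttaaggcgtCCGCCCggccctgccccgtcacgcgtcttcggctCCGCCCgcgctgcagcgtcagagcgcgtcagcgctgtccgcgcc

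The GC box was found, on either strand, in 21 of 27 member windows (77.8%) and in 30.5% of all 33469 windows; Sv2c and Unc13a held 2 each and Sv2b and Syn1 held 0. The median GC content was 66.0% in member windows and 51.2% in all. The cyclic AMP response element was found in 4 member windows (14.8%), those of Napa, Sh3gl2, Syn1 and Vamp1, and in 1.59% of all. TATAAA was found in 0 member windows and 12.9% of all, and TTCAGCACC, the left part of the element bound by the neuronal repressor REST, in 0 and 0.305%. Both strands were searched. All windows were not limited to the 10390 tested transcripts, whereas every member was tested, so these shares compare unlike sets. A match is a description of letters and not a binding site.

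The mean of each of the 6 active zone members was highest in pair B. Pclo was higher in B than in A, at 0.70 ± 0.15 (SE, adjusted p = 0.00400) and lower in C than in B, at -0.60 ± 0.15 (SE, adjusted p = 0.00826); with the pair C vehicle library left out, the latter was -0.27 (adjusted p = 0.110). With no filter on low values, neither Pclo difference was called (adjusted p = 0.0614 and 0.0742). Unc13b was at 2.86, 5.15 and 3.12 FPKM in vehicle (pairs A, B, C) and 2.96, 5.92 and 3.14 FPKM with Chrdl1, with both pair B libraries above all others, and was higher in B than in A, at 0.74 ± 0.13 (SE, adjusted p = 0.00139). Unc13a and Rims2 were higher in B than in A, at 0.42 ± 0.099 (SE, adjusted p = 0.00780) and 0.40 ± 0.12 (SE, adjusted p = 0.0227). All 6 were called lower in C than in B, from -0.32 for Unc13a to -0.66 for Unc13b, a contrast that shares the pair B libraries. Of the 16 active zone genes outside the members, 1 was called higher and 1 lower in B than in A, with a median of 0.031, and 1 higher and 8 lower in C than in B, with a median of -0.25. Of all transcripts of 4000 bases and over, 16.1% were called higher in B than in A, with a median of 0.10, and 19.2% lower in C than in B, with a median of -0.077. With a length trend removed from each library, an alternative chosen after seeing the data, 3 of 6 were called higher in B than in A and 4 of 6 lower in C than in B; with no filter there were 1 and 4. Without the vehicle library of pair C, 2 of 6 were called lower in C than in B. Microglial markers were lowest in pair B, and their part was not tested.

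Cplx1, Cplx2 and several vesicle genes were highest in pair A. Cplx1 was at 108, 69.3 and 95.5 FPKM in vehicle (pairs A, B, C) and 108, 68.3 and 80.0 FPKM with Chrdl1, with both pair A libraries the highest, and was lower in B than in A, at -0.64 ± 0.084 (SE, adjusted p = 1.5e-04). Cplx2 was at 30.8, 18.9 and 15.1 FPKM in vehicle (pairs A, B, C) and 30.4, 20.8 and 19.8 FPKM with Chrdl1, again highest in pair A, and was lower in C than in A, at -0.79 ± 0.10 (SE, adjusted p = 1.4e-04). Syt11 was at 283, 223 and 173 FPKM in vehicle (pairs A, B, C) and 282, 211 and 191 FPKM with Chrdl1 and Syngr1 at 71.9, 54.2 and 44.9 FPKM in vehicle (pairs A, B, C) and 70.3, 55.1 and 49.2 FPKM with Chrdl1. Their differences for C minus A were -0.63 ± 0.083 (SE, adjusted p = 1.6e-04) and -0.59 ± 0.078 (SE, adjusted p = 1.8e-04). Syn1 and Syn2 were lower than in A in both other codes, Syn1, at -0.39 ± 0.076 (SE, adjusted p = 0.00236) for C minus A and Syn2, at -0.55 ± 0.077 (SE, adjusted p = 2.4e-04) for B minus A. Syt1, Syt4, Syt7 and Syn3 were called lower in C than in A, at -0.32, -0.32, -0.48 and -0.46, and Sypl1 higher at 0.34. Vamp1 was higher in B than in A, at 0.35 ± 0.088 (SE, adjusted p = 0.0111) and Vamp2 lower, at -0.35 ± 0.081 (SE, adjusted p = 0.00696). The SNARE Snap25 was higher in C than in B, at 0.35 ± 0.080 (SE, adjusted p = 0.00524). Nsf, Napa, Napb, Sh3gl2, Stx1a, Rab3a, Syngr3, Syt2 and Amph were called in 0 of the 3 contrasts, and Syt2 and Amph had the largest SE among members for B minus A, 0.17 each.

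Other genes of the release and vesicle cycle were taken from a list of 92, of which 88 were in the table and 83 were tested. For Chrdl1 against vehicle, limma called 0 of 83 with or without the block; 29 were positive and 54 negative, with a median of -0.028. At an unadjusted p under 0.05 there were 0 without the block and 2 with it, where 5.15% of all transcripts were, Syt9 at -0.38 ± 0.12 (SE with the block) and Rab3il1, a Rab3-interacting protein, at -0.24 ± 0.11. Among the highest were Ap2m1, a subunit of the clathrin adaptor, at 396 to 468 FPKM, and Syt13, at 265 to 316 FPKM. The clathrin light chains Cltb and Clta were at 170.4 to 212 FPKM and 149 to 181 FPKM. Cadps, a priming factor of dense-core vesicles, was at 48.3 to 57.2 FPKM, and the adaptor Apba1 (Mint) and its partner Lin7c were at 37.7 to 62.01 FPKM and 38.2 to 57.8 FPKM. Dnajc5, the vesicle chaperone cysteine string protein, was at 71.6 to 102 FPKM, and the vesicle proteins Rabac1 and Scamp1 were at 145 to 192 FPKM and 73.3 to 88.6 FPKM. Syt5 and Syt3 were at 85.3 to 111 FPKM and 19.3 to 23.2 FPKM. Between codes, 16 of 83 were called higher and 23 lower in C than in A, where 21.0% and 9.94% of all transcripts were. In B against A there were 9 and 21 (all, 14.0% and 15.0%), and in C against B 13 and 17 (all, 20.2% and 11.7%).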

How the data were processed

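Polyadenylated RNA of RGC cultures was sequenced from 6 stranded TruSeq libraries, per the labels' protocols. Per the submitters' processing notes, STAR 2.4.0k, HOMER 4.8.3 and FastQC were used on rn6; the annotation release is not known here. The authors deposited 1 table of FPKM values with transcript lengths. Values above 0 were whole multiples of 1 read for 100.0% of the values below 1000 reads that could be checked (within 0.0005 FPKM of rounding and 0.02 read; 7.41% to 9.99% by chance), which gave the read totals and reads per gene. The 10390 transcripts at 1 FPKM or above in 3 or more libraries entered limma 3.58.1 (R 4.3.3) (trend, two-sided) on log2(FPKM + 1), adjusted by Benjamini-Hochberg over all of them, with treatment as the only term; contrasts between title codes had treatment as a term. The fits were run on simulated reads with a fixed spread between libraries. A recovery threshold was set there for the block and title code fits, and none for the main treatment fit. Deviations from group means correlated between libraries of a title code at 0.82, 0.86 and 0.84, so the codes were taken to pair the libraries. Alternatives were another pseudocount, other filters, quantile normalization, voom, removal of a length trend, and leaving out libraries or pairs. Python 3.11.15 with numpy 2.4.6, pandas 2.3.3 and matplotlib 3.10.9 was used for the rest. Counting error alone limits Amph and Syt2 more than any other member. Values in every library are given for the highest member of each role, for members called between codes with the largest differences, and for those with an unadjusted p under 0.05 or 1 sign in every pair, with a few more chosen after their values were seen. Members and lists were chosen with earlier results of these data known, so no list was tested as a set. Values of some other genes are not reported here.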

Additional observations from a re-analysis of the deposited data

How the results depend on the processing

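For Chrdl1 against vehicle, members called stayed at 0 under every alternative except the block without pair B (1, Pclo), so leaving out libraries or pairs gave 0 to 1. All transcripts called came to 2 with voom and the block, and to 0 to 34 on leaving out libraries or pairs, with 25 without pair A and 34 without pair B, both with the block. The replicate block changed no other call. The members' median fold change ran from -0.058 to 0.079 on leaving out libraries or pairs, the lowest without the vehicle library of pair C. Syp turned to 0.015 with quantile normalization, with or without the block; on leaving out libraries or pairs it ran from -0.17 to 0.014 and Snap25 from -0.030 to 0.15, with Syp above 0 without the Chrdl1 library of pair B and Snap25 at -0.030 and -0.025 when the pair B vehicle or the pair C Chrdl1 library was left out; each leaves the codes unequal between groups. Between codes, no filter gave 1 higher for B minus A and 1 higher and 7 lower for C minus A. Quantile normalization gave 4 lower for B minus A, and removal of the length trend 1 higher and 21 lower for C minus A; the cause was not tested. Leaving out 1 library, which leaves 1 code with a lone library assumed to vary like the rest, gave 3 to 6 higher and 3 to 14 lower for B minus A, 1 to 4 and 6 to 15 for C minus A, and 1 to 5 and 6 to 14 for C minus B. By reads rather than FPKM, which drops the division by length, shares moved to 77.5% for Syn1, 61.02% for Syt4, 89.95% for Cplx1, 69.8% for Napa and 72.9% for Syngr3. Amph and Syt2 rest on the fewest reads.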
